A study of Mus musculus with 4 samples.

Results

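The common gamma chain family of cytokine receptors and its ligands was examined in cultured mouse macrophages through 8 genes chosen by symbol from the 18256 genes counted. These were the shared chain Il2rg, the further receptor chains Il2ra, Il4ra, Il7r, Il15ra, Il13ra1 and Il21r, and the ligand Il15. All 8 were found once in the count tables, and all 8 passed the filter on low counts. Each value is a count of sequencing reads assigned to a gene in 1 of 4 RNA-seq libraries. The cells were wild-type (WT) mouse bone marrow cells grown for 7 days with 20 ng/ml recombinant MCSF, the growth factor that drives marrow progenitors to become macrophages. For the last 24 h, the M1 group (2 libraries) received LPS at 100 ng/ml, a bacterial cell-wall component sensed by the receptor TLR4, together with IFN-γ at 20 ng/ml. The M0 group (2 libraries) stayed in MCSF alone for those 24 h. The labels leave unsaid if the M1 medium still held MCSF, and the age, sex and number of the mice. They also leave unsaid whether the libraries of a group came from separate animals or cultures. The p-values below therefore judge differences against the spread between these libraries, which may be technical. With 2 libraries a group, the test takes its estimate of that spread partly from the other tested genes.

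Il2rg encodes the common gamma chain, which pairs with other chains to form the receptors for IL-2, IL-4, IL-7, IL-9, IL-15 and IL-21. The gamma chain carries the kinase JAK3, and some of its partner chains, such as IL-4Rα, IL-7Rα and IL-21R, carry JAK1. Ligand binding leads to phosphorylation of STAT5, STAT6 or STAT3 according to the receptor. The family is best known in lymphocytes, whose development depends on it. Macrophages are known to respond to IL-4, through IL-4Rα paired with the gamma chain or with IL-13Rα1, and to display IL-15 bound to IL-15Rα on their surface to neighbouring lymphocytes.

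Library totals were 17838606 and 17633945 reads in M1, and 18987705 and 15921466 reads in M0. All 8 macrophage markers checked were counted in every library, and Csf1r, the receptor for MCSF, averaged 3101 CPM (counts per megaread, with libraries scaled by trimmed means) in M1 and 3401 CPM in M0, which did not pass the test. Of the 8 markers, 4 rose in M1 (Adgre1, Cd14, Fcgr1 and Itgam) and 2 fell (Cd68 and Mertk), so their levels were not constant. T-cell and NK-cell markers summed over 17 genes to 10.8 and 12.3 CPM in M1 and 24.1 and 22.3 CPM in M0. Most of the M0 sum was Cd4, with 21.5 and 21.3 CPM. Within that list, 4 genes had no read in any library, and Cd3e, a defining T-cell gene, had 0 and 0 reads in M1 and 4 and 0 reads in M0. Cd247, a signalling chain of the T-cell receptor, went the other way and was the only gene of that list called higher. It had 51 and 65 reads in M1 and no read in M0. By summed reads it was 45.3-fold higher in M1, with 3 counts taken for the M0 libraries together. Of the 4 B-cell markers examined, Ms4a1 had no read in any library, while the sum was 36.0 and 37.5 CPM in M1 and 149 and 138 CPM in M0, nearly all of it from Ighm. A dendritic-cell list of 7 genes summed to 10.0 and 7.07 CPM in M1 and 4.75 and 4.52 CPM in M0. Of 8 neutrophil markers, 5 were lower in M1 (Mpo, Elane, Ltf, Ngp and S100a9) and 2 were higher (Csf3r and Camp), and their sum was 382 and 356 CPM in M1 and 344 and 356 CPM in M0. The part of such cells in the results below was not tested. In bulk RNA, fewer cells of a type and less RNA per cell cannot be told apart.

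Of the 8 genes, 6 rose in M1 (Il2rg, Il2ra, Il4ra, Il15, Il15ra and Il21r), 1 fell (Il7r), and Il13ra1 did not pass the test. Across all 12966 tested genes, 24.2% were called higher and 24.0% were called lower in M1 by edgeR's quasi-likelihood test at a Benjamini-Hochberg adjusted p under 0.05. The M1 and M0 libraries did not overlap for 7 of the 8 genes, against 74.9% of all tested genes. The median log2 fold change of the 8 genes was 2.12, and the median over all tested genes was -0.02. The median size of the change, without its sign, was 2.35 for the 8 genes and 0.47 for all tested genes. The 8 genes were chosen with earlier results of these data known. Their shares and medians beside those of all genes are therefore a description and not a test of the family. Every fold change below is M1 over M0 from that fit unless a ratio or a share is named.

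**Figure D1:**
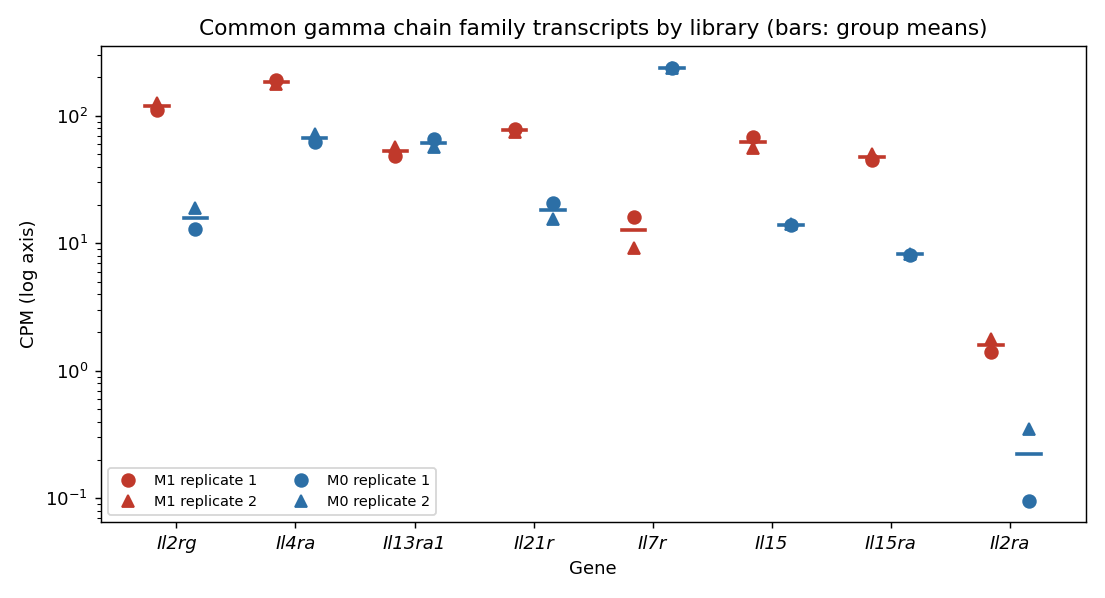
CPM of the 8 genes in each library, on a log axis, with the 2 M1 libraries left of the 2 M0 libraries and each point being 1 library and each short line a group mean. Il7r is the gene with M1 points far below its M0 points, the points of Il13ra1 overlap between groups, and the other 6 genes have both M1 points above both M0 points.

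The shared chain Il2rg had 1803 and 2063 reads in M1 libraries, against 268 and 327 reads in M0 libraries. Scaled for library size, that was 111 and 127 CPM in M1 and 12.9 and 19.0 CPM in M0. Both M1 libraries lay well above both M0 libraries, and the replicates of a group differed by 1.14-fold in M1 and 1.47-fold in M0. Il2rg was 7.52-fold higher in M1 (log2 fold change 2.91, SE 0.17, adjusted p = 1.15e-07 by edgeR's quasi-likelihood test), and its log2 fold change ranked above 96.9% of the tested genes. The gene lies on the minus strand at chrX:101264385-101268255 of build GRCm38.p6. Its exons share 728 of 2387 bases (30.5%) with Gm20489, a gene annotated on the same strand, so reads in that stretch cannot be assigned to Il2rg alone. The 250 bases before its start site (chrX:101268256-101268505, minus strand, 49.2% G or C, from the RefSeq promoter table of GRCm38.p6) are shown because Il2rg is the shared chain of the family. They carry no capitals since none of the motifs searched was found in them.
Il2rg promoter: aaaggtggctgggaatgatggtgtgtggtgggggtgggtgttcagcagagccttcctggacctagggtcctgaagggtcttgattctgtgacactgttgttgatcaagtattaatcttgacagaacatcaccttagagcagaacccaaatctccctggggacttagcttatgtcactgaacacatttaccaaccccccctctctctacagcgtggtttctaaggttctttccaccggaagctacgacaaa

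The 3 genes whose profile over the 4 libraries was nearest to that of Il2rg were Ifi27l2a, Parp11 and Ier3. Likeness was the root mean square difference of centred log2 CPM over the 4 libraries, and it was 0.119 for Ifi27l2a, 0.125 for Parp11 and 0.127 for Ier3. Their log2 fold changes were 3.05, 2.76 and 2.93 in that order, and with 4 libraries such a likeness is a description only.

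**Figure D2:**
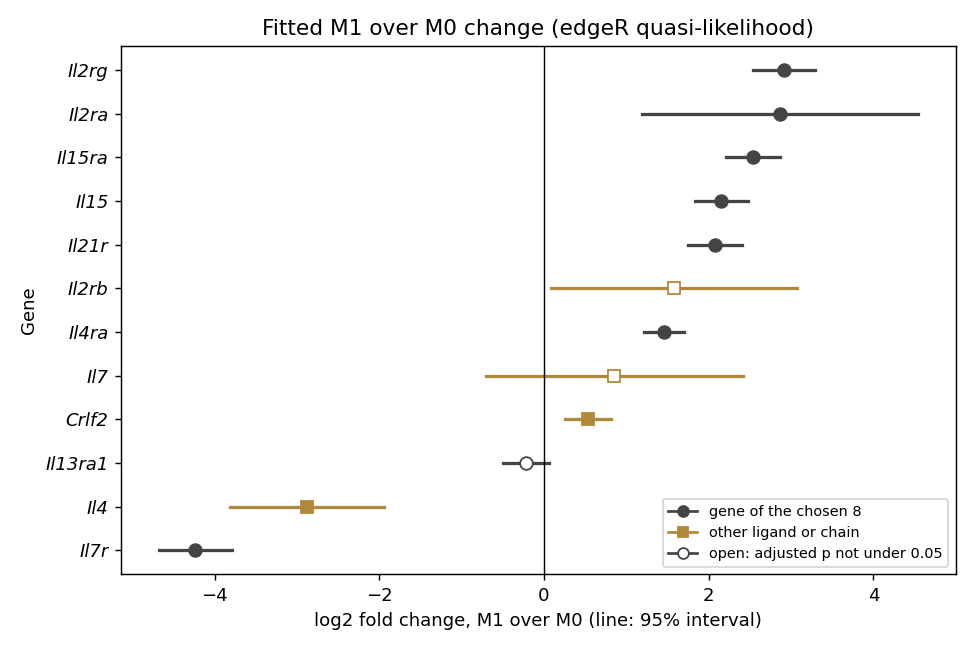
Log2 fold change, M1 over M0, of the 8 genes and of the other tested ligands and receptor chains of the family. Lines are 95% confidence intervals of single genes, computed from the edgeR fit and not adjusted for the number of genes tested. Filled symbols passed the adjusted test and open symbols did not. Il7r sits at -4.23 and Il2rg at 2.91, and the interval of Il13ra1 crosses 0.

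Il4ra encodes IL-4Rα, the chain that binds IL-4 and is used in both types of IL-4 receptor. It had 3076 and 2914 reads in M1 libraries, against 1291 and 1248 reads in M0 libraries, or 189 and 179 CPM in M1 and 61.9 and 72.3 CPM in M0. The groups were far apart relative to the gap between their replicates. Il4ra rose 2.75-fold in M1 (log2 fold change 1.46, SE 0.11, adjusted p = 9.87e-07 by edgeR's quasi-likelihood test). Il13ra1 (chrX:36112108-36171262, plus strand), which joins IL-4Rα in the receptor that binds both IL-4 and IL-13, had 790 and 932 reads in M1 and 1380 and 985 reads in M0. That was 48.6 and 57.3 CPM in M1 and 66.2 and 57.1 CPM in M0, and the groups overlapped. Its log2 fold change was -0.22 (95% interval -0.50 to 0.07, adjusted p = 0.185 by edgeR's quasi-likelihood test). Scaled by library totals alone, which shifted the median of all genes by -0.25 on the log2 scale, Il13ra1 had a log2 fold change of -0.47 and an adjusted p of 0.0109 by edgeR's quasi-likelihood test.

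The makeup of the IL-4 receptor chains was compared within each library as a ratio of reads per kilobase of exon, which does not depend on the scaling between libraries. Il4ra stood at 0.679 and 0.562 times Il2rg in M1 and at 1.92 and 1.52 times Il2rg in M0. By these lengths, the gamma chain was the more abundant of the pair in both M1 libraries, and the less abundant in both M0 libraries. The length of Il2rg includes the 30.5% of bases shared with Gm20489, so how reads there were assigned affects this comparison. Il13ra1 stood at 0.282 and 0.291 times Il2rg in M1 and at 3.31 and 1.94 times Il2rg in M0. The ratio of Il13ra1 to Il2rg was 8.85-fold lower in M1 and that of Il4ra to Il2rg 2.76-fold lower, with no overlap between the groups in either. An exact two-sided permutation test over 2 against 2 libraries cannot go below p = 0.333, which is the p of each of the 4 ratios computed in this family (adjusted p also 0.333).

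**Figure D3:**
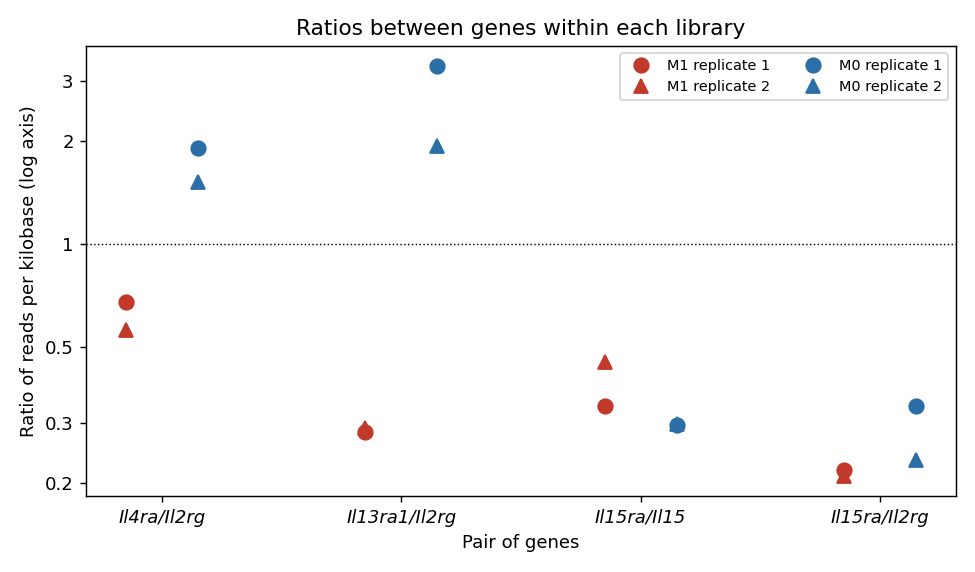
The 4 within-library ratios of reads per kilobase of exon, on a log axis, with M1 libraries left of M0 libraries and 1 point per library. The ratio of Il13ra1 to Il2rg lies at 0.282 and 0.291 in M1 and at 3.31 and 1.94 in M0, and the 4 ratios show no overlap between groups.

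The ligands of these receptors were scarce. Il4 had 12 and 12 reads in M1 libraries, against 95 and 111 reads in M0 libraries, or 0.739 and 0.738 CPM in M1 and 4.55 and 6.43 CPM in M0. It fell in M1 (log2 fold change -2.88, SE 0.42, adjusted p = 0.00021 by edgeR's quasi-likelihood test). Markers of mast cells and basophils, which are known sources of IL-4, summed over 4 genes to 2.89 and 1.48 CPM in M1 and 2.35 and 2.14 CPM in M0. Among them Cpa3 had 0 and 0 reads in M1 and 1 and 10 reads in M0, and Mcpt8 had 6 and 6 reads in M1 and 10 and 8 reads in M0. Kit had 25 and 12 reads in M1 and 26 and 10 reads in M0, and Gata2 had 16 and 6 reads in M1 and 12 and 9 reads in M0, neither past the test. The part of such cells in the Il4 reads was not tested. Il13 had 0 and 2 reads in M1 and no read in M0, too few to test. Il13ra2, a receptor for IL-13 best known as a decoy, had 15 and 4 reads in M1 and no read in either M0 library. By summed reads it was 7.43-fold higher in M1, with 3 counts taken for the M0 libraries together. It was under the filter, and in the alternatives that tested it the call depended on the setting. Its adjusted p by edgeR was 0.0405 with no low-count filter and 0.0147 without M1 replicate 2 (both called higher), and 0.13 without M0 replicate 1 and 0.121 without M0 replicate 2.

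Il7r (chr15:9506159-9529941, minus strand) encodes IL-7Rα, which pairs with the gamma chain to bind IL-7 and with the TSLP receptor chain to bind TSLP, a cytokine made by epithelial cells. It had 262 and 148 reads in M1 libraries, against 4984 and 4066 reads in M0 libraries. Scaled, that was 16.1 and 9.10 CPM in M1 and 239 and 236 CPM in M0. The M0 libraries were nearly equal, and the M1 libraries differed by 1.77-fold, a gap far smaller than that between the groups. Il7r was 18.8-fold lower in M1 (log2 fold change -4.23, SE 0.20, adjusted p = 1.86e-08 by edgeR's quasi-likelihood test), and only 1.03% of the tested genes ranked below it. Il7r is also expressed by lymphocytes, whose markers were lower in M1 in sum but not gene by gene. The T-cell and NK-cell list summed to at most 24.1 CPM in M0, of which Cd4, with 74 and 80 reads in M1 and 449 and 368 reads in M0, was the main part, while Cd247 was higher in M1, as given above. Ighm averaged 34.2 CPM in M1 and 139 CPM in M0, while Cd79a, a defining B-cell gene, had 0 and 0 reads in M1 and 3 and 3 reads in M0. The part of lymphocytes in the Il7r reads was not tested.

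The partner chain and the ligands of IL-7Rα were also measured. Crlf2, the TSLP receptor chain, averaged 80.9 ± 8.91 CPM in M1 and 55.7 ± 6.40 CPM in M0 (SD, n = 2 each). It rose in M1 with a log2 fold change of 0.54 (SE 0.13, adjusted p = 0.00488 by edgeR's quasi-likelihood test), and the call was lost without M0 replicate 1 (adjusted p = 0.13), without M0 replicate 2 (adjusted p = 0.0518) and under scaling by library totals (adjusted p = 0.0737). Il7, the ligand of the IL-7 receptor, had 10 and 34 reads in M1 and 12 and 16 reads in M0. Its log2 fold change of 0.86 did not pass the test (adjusted p = 0.343 by edgeR's quasi-likelihood test), and it was -0.26 without M1 replicate 2. Tslp had no read in M1 and 2 and 0 reads in M0.

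Il15 encodes IL-15, and Il15ra the high-affinity chain that holds IL-15 for presentation to neighbouring cells. Il15 had 1112 and 910 reads in M1 libraries, against 288 and 244 reads in M0 libraries, or 68.4 and 56.0 CPM in M1 and 13.8 and 14.1 CPM in M0. Il15ra had 734 and 809 reads in M1 libraries, against 168 and 143 reads in M0 libraries, or 45.2 and 49.8 CPM in M1 and 8.05 and 8.29 CPM in M0. For both genes the M1 libraries were several times above the M0 libraries, and the M0 replicates were nearly equal. Il15 rose 4.45-fold in M1 (log2 fold change 2.15, SE 0.15, adjusted p = 3.79e-07 by edgeR's quasi-likelihood test). Il15ra rose 5.81-fold in M1 (log2 fold change 2.54, SE 0.15, adjusted p = 1.23e-07 by the same test). Per kilobase of exon, Il15ra stood at 0.336 and 0.452 times Il15 in M1 and at 0.297 and 0.298 times Il15 in M0. That ratio was 1.31-fold higher in M1 without overlap, but the M1 libraries differed from each other by more than the lower of them differed from M0. Il15ra stood at 0.219 and 0.211 times Il2rg in M1 and at 0.337 and 0.235 times Il2rg in M0, so the shared chain was the more abundant in every library. Dendritic cells also make IL-15, and of their markers Ccr7 had 81 and 71 reads in M1 and no read in M0 and Xcr1 had 56 and 28 reads in M1 and 4 and 0 reads in M0. Others went the other way: Flt3 had no read in M1 and 2 and 5 reads in M0, Zbtb46 had 8 and 2 reads in M1 and 27 and 24 reads in M0, and Cd209a had no read in M1 and 24 and 22 reads in M0. The part of such cells in the Il15 and Il15ra reads was not tested. Il15 lies at chr8:82331624-82403252 on the minus strand.

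Il2ra encodes IL-2Rα (CD25), which raises the affinity of the IL-2 receptor for IL-2, and it lies beside Il15ra on chromosome 2. It was the scarcest of the 8 genes, with 23 and 29 reads in M1 libraries, against 2 and 6 reads in M0 libraries, or 1.42 and 1.78 CPM in M1 and 0.0959 and 0.348 CPM in M0. In the M0 libraries it was near the value of 3 reads, which is 0.144 CPM in M0 replicate 1 and 0.174 CPM in M0 replicate 2. Il2ra rose in M1 (log2 fold change 2.86, SE 0.76, 95% interval 1.19 to 4.54, adjusted p = 0.00926 by edgeR's quasi-likelihood test). The call was lost without M0 replicate 1 (log2 fold change 2.18, adjusted p = 0.116), without M0 replicate 2 (3.97, adjusted p = 0.05003) and without M1 replicate 2 (2.69, adjusted p = 0.06305), all by the same test. Il2rb, the chain that IL-2 and IL-15 receptors share, had 16 and 20 reads in M1 and 8 and 6 reads in M0. Its log2 fold change of 1.58 did not pass the test (adjusted p = 0.0761 by edgeR's quasi-likelihood test), and Il2 had at most 3 reads in any library. The gap between Il2ra (chr2:11642792-11693194, plus strand) and Il15ra (chr2:11705172-11733985, plus strand) is 11978 bases and holds 1 annotated long non-coding RNA, Gm39759.

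The promoters of these neighbours are shown because both genes rose in M1 and lie side by side, although Il2ra was scarce in both groups. Capitals in the Il2ra sequence mark a pair of overlapping matches to the kappaB consensus, the site of NF-κB factors, at -201 to -192 and -200 to -191 from the start site. The Il2ra window is chr2:11642542-11642791 (250 bases, 42.4% G or C), and the Il15ra window is chr2:11705043-11705289 (247 bases, 53% G or C). Both are on the plus strand of GRCm38.p6, from the RefSeq promoter table. The Il15ra window precedes a start site at 11705293, downstream of the gene start at 11705172 given above, so part of it lies within the annotated gene.
Il2ra promoter: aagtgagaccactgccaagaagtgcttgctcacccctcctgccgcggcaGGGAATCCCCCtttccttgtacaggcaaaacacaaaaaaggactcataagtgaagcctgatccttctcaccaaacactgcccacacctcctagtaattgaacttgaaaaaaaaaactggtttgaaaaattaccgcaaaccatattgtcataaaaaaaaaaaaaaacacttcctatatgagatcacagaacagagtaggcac
Il15ra promoter: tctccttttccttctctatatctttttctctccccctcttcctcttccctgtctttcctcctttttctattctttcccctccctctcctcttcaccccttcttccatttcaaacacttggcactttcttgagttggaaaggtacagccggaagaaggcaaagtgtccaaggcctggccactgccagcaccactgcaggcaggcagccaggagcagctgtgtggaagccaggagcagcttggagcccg

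Promoter windows from 250 bases before to 50 after a start site were in the RefSeq table for 7 of the 8 genes (8 windows), without Il15. They were searched on both strands for the kappaB consensus, the STAT site TTCNNNGAA, the wider STAT6 site TTCNNNNGAA and the interferon element GAAANNGAAA. The kappaB consensus was found in Il2ra and Il4ra, where it lies at +21 to +30, and 8.46% of all 32851 windows in the table hold it. The STAT site was found in Il7r alone, at -142 to -134, against 8.3% of all windows. The STAT6 site and the interferon element were found in none of the 8 windows, against 6.95% and 3.44% of all windows. No match says only that these letters are not in these windows.

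Il21r encodes IL-21R, which pairs with the gamma chain to bind IL-21, a cytokine of helper T cells. It had 1285 and 1220 reads in M1 libraries, against 434 and 269 reads in M0 libraries, or 79.1 and 75.1 CPM in M1 and 20.8 and 15.6 CPM in M0. Both M1 libraries exceeded both M0 libraries by far more than the gap between the M0 replicates. Il21r rose 4.22-fold in M1 (log2 fold change 2.08, SE 0.15, adjusted p = 6.25e-07 by edgeR's quasi-likelihood test). It is the neighbour of Il4ra on chromosome 7, where Il4ra lies at chr7:125552271-125579474 and Il21r at chr7:125603252-125634397, both on the plus strand, with a gap of 23778 bases and no annotated gene between. The 95% interval of the log2 fold change was 1.75 to 2.41 for Il21r and 1.21 to 1.70 for Il4ra, and a difference between the neighbours was not tested. The exons of Il4ra share 571 of 6002 bases (9.51%) with Gm44876 on the opposite strand, and whether the counting used strand is not given in the sources used here. Il9r had no read in M1 and 2 and 0 reads in M0, and Il9 and Il21 were not analysed here.

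To compare genes with each other, counts were divided by exon length, giving RPKM (CPM per kilobase of exon). In M1 the order of mean levels was Il2rg (49.8 RPKM), Il4ra (30.7), Il15 (27.5), Il21r (23.2), Il13ra1 (14.3), Il15ra (10.7), Il7r (2.71) and Il2ra (0.280). The libraries of neighbours in that order overlapped only for Il4ra and Il15. With longest-transcript lengths, Il15ra lay above Il13ra1 in both M1 libraries, so the order of those genes depends on the length used. In M0 the order was Il7r (50.9 RPKM), Il13ra1 (16.6), Il4ra (11.2), Il2rg (6.66), Il15 (6.18), Il21r (5.47), Il15ra (1.84) and Il2ra (0.0388). There, Il2rg overlapped with Il15, and Il15 with Il21r. Il2rg thus led the order in M1 and Il7r in M0. The levels of Il2rg here, and its shares below, use all its exon bases, including those shared with Gm20489.

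The 7 receptor chains were also taken as a share of their summed RPKM, which was 129 and 135 RPKM in M1 and 92.8 and 92.5 RPKM in M0. Il7r made up 2.69% and 1.45% of it in M1, against 55.2% and 54.6% in M0. Il2rg made up 36.1% and 39.5% in M1, against 5.80% and 8.58% in M0. Il4ra followed with 24.5% and 22.2% in M1, against 11.1% and 13.0% in M0, and Il21r with 18.5% and 16.8% in M1, against 6.74% and 5.07% in M0. The share of Il13ra1 was 10.2% and 11.5% in M1, against 19.2% and 16.6% in M0, lower in M1 although its own level did not pass the test. Il15ra made up 7.89% and 8.32% in M1, against 1.95% and 2.01% in M0, and Il2ra stayed under 1% in every library. With longest-transcript lengths, the M1 shares were 11.4% and 11.9% for Il15ra and 7.63% and 8.58% for Il13ra1. A share falls when others rise, so these values describe the mixture and not single genes.

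**Figure D4:**
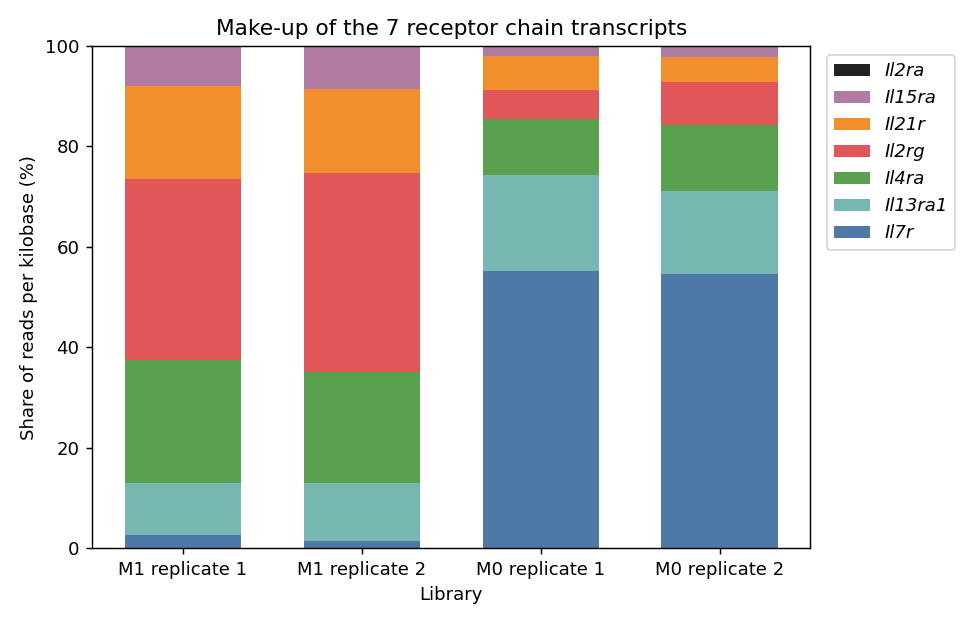
Share of each of the 7 receptor chains in their summed RPKM, in percent, as stacked bars with the 2 M1 libraries left of the 2 M0 libraries. Il7r fills 55.2% and 54.6% of the M0 bars and 2.69% and 1.45% of the M1 bars, where Il2rg is the widest band with 36.1% and 39.5%.

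The list of JAK and STAT genes held more that were higher than lower in M1. It includes Jak2 and Tyk2, which are not kinases bound to the gamma chain, and of its other genes only Jak3 and Stat3 rose. Of the 8 in the list, 4 rose (Jak2, Stat3, Jak3 and Tyk2) and 1 fell (Stat5b), with a median log2 fold change of 0.61, and every gene of the pathway lists below is set against the same shares of 24.2% and 24.0% of all tested genes. Jak2, a kinase of the interferon-γ receptor rather than of the gamma chain, averaged 558 ± 25.6 CPM in M1 and 62.5 ± 0.785 CPM in M0 (SD, n = 2 each; log2 fold change 3.16, adjusted p = 8.98e-10 by edgeR's quasi-likelihood test). Stat3, which IL-21 is known to activate, averaged 263 ± 23.5 CPM in M1 and 124 ± 10.3 CPM in M0 (log2 fold change 1.09, adjusted p = 9.2e-06 by edgeR). Jak3, the kinase bound to the gamma chain, had 28.7 and 33.8 CPM in M1 and 11.1 and 19.2 CPM in M0. It rose with a log2 fold change of 1.05 (adjusted p = 0.00295 by edgeR), and the call was lost without M0 replicate 1 (adjusted p = 0.0661). The call of Tyk2 was lost without M0 replicate 2 (adjusted p = 0.0642). Jak1, which some partner chains carry, did not pass the test (log2 fold change 0.06). Among the STAT genes best known downstream of this family, Stat5a and Stat6 did not pass the test, with log2 fold changes of 0.24 and -0.15. Stat5b averaged 65.1 ± 2.89 CPM in M1 and 82.3 ± 1.57 CPM in M0 (log2 fold change -0.34, adjusted p = 0.0224 by edgeR), and its call was lost without M0 replicate 1, M0 replicate 2 or M1 replicate 1 (adjusted p of 0.1225, 0.1508 and 0.08221).

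Of 12 inhibitors of the pathway, 6 rose and 3 fell in M1, with a median log2 fold change of 0.30. Socs3, which blocks JAK kinases, averaged 473.5 ± 26.4 CPM in M1 and 12.8 ± 0.146 CPM in M0 (SD, n = 2 each; log2 fold change 5.21, adjusted p = 1.06e-10 by edgeR's quasi-likelihood test). Socs1 averaged 26.5 ± 1.14 CPM in M1 and 0.703 ± 0.317 CPM in M0 (log2 fold change 5.25, adjusted p = 5.06e-08 by edgeR). Cish and Socs2, SOCS-family genes that STAT5 induces in other cells, were scarce and did not pass the test. Cish had 2 and 19 reads in M1 and 19 and 6 reads in M0 (log2 fold change 0.01, 95% interval -2.03 to 2.06). Socs2 had 25 and 40 reads in M1 and 33 and 27 reads in M0 (log2 fold change 0.34, 95% interval -0.73 to 1.42). With such wide intervals, a change and no change cannot be told apart. The phosphatase Ptpn6 rose (log2 fold change 1.14, adjusted p = 2.88e-06 by edgeR), and Socs5 and Cblb were among those that fell, with log2 fold changes of -0.70 and -0.57. Those calls were lost without M0 replicate 2 for Socs5 (adjusted p = 0.0568) and without M0 replicate 1 for Cblb (adjusted p = 0.115). The adaptor list of 9 genes had 1 higher (Pik3cd) and 3 lower (Irs2, Pik3r1 and Gab2), with a median of -0.13. Irs2, the adaptor that docks on IL-4Rα, averaged 2.52 ± 1.30 CPM in M1 and 31.9 ± 7.16 CPM in M0 (log2 fold change -3.66, adjusted p = 1.69e-06 by edgeR), and the log2 fold change was -4.30 without M1 replicate 2.

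Genes known to be induced by IL-4 and IL-13 in mouse macrophages mostly went the other way from Il4ra. Of 13 tested, 9 fell and 3 rose in M1, with a median log2 fold change of -1.20. Pparg, a lipid-sensing transcription factor, averaged 2.03 ± 1.30 CPM in M1 and 70.7 ± 2.65 CPM in M0 (SD, n = 2 each; log2 fold change -5.12, adjusted p = 4.03e-08 by edgeR's quasi-likelihood test), and the log2 fold change was -5.97 without M1 replicate 2. Mgl2, a lectin, had no read in M1 and 14 and 10 reads in M0. By summed reads it was 6.82-fold lower in M1, with 3 counts taken for the M1 libraries together. Its call was lost without M1 replicate 1 (adjusted p = 0.05577) and without M1 replicate 2 (adjusted p = 0.05141), and it was under the filter without M0 replicate 1, without M0 replicate 2 and with the stricter filter. The 3 that rose were Ccl22, a chemokine, Pdcd1lg2, which encodes PD-L2, and Arg1, the arginase that was named after its values were seen. Ccl22 averaged 17.4 ± 1.44 CPM in M1 and 0.535 ± 0.554 CPM in M0 (log2 fold change 5.09, adjusted p = 3.28e-06 by edgeR), and the log2 fold change was 4.22 without M0 replicate 1 and 6.86 without M0 replicate 2. Pdcd1lg2 had 48 reads in M1 and 2 reads in M0, a ratio of 28.1 with a 95% counting interval of 7.38 to 239, and its call was lost without M0 replicate 1 (adjusted p = 0.0602). Arg1 averaged 5.72 ± 1.48 CPM in M1 and 0.972 ± 0.0185 CPM in M0. No IL-4 or IL-13 was added to these cultures, as far as the labels say.

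Of 10 genes known as STAT5 targets, 3 rose, 1 fell and 6 did not pass the test, with a median log2 fold change of 0.14. Bcl2, a survival factor that IL-7 raises in lymphocytes, averaged 3.78 ± 1.18 CPM in M1 and 16.2 ± 0.640 CPM in M0 (SD, n = 2 each; log2 fold change -2.09, adjusted p = 3.97e-05 by edgeR's quasi-likelihood test). Pim1, a kinase, averaged 69.9 ± 1.99 CPM in M1 and 20.2 ± 4.67 CPM in M0 (log2 fold change 1.79, adjusted p = 3.19e-06 by edgeR). Ccnd2, a cyclin, rose with a log2 fold change of 1.23, and Myc with 0.65. The call of Myc was lost without M0 replicate 1, without M0 replicate 2 and under scaling by library totals (adjusted p of 0.06024, 0.09519 and 0.08027 by edgeR). Of 5 factors known to act at the Il15 promoter, 2 rose and 1 fell, with a median log2 fold change of 0.05. Irf1 averaged 104 ± 5.09 CPM in M1 and 40.1 ± 2.32 CPM in M0, and Nfkb1 averaged 482 ± 56.5 CPM in M1 and 200.4 ± 6.66 CPM in M0. Irf8 fell and averaged 84.3 ± 1.83 CPM in M1 and 160.7 ± 5.95 CPM in M0. Proteases known to shed cytokine receptors and ligands from the cell surface went in both directions. Adam17 rose with a log2 fold change of 0.58 and Adam10 fell with -0.65 (adjusted p of 0.000333 and 0.000219 by edgeR), while Mmp9 had a log2 fold change of 1.05 (adjusted p = 0.00077 by edgeR), a call that was lost without M0 replicate 1 or M0 replicate 2 (adjusted p of 0.07731 and 0.05118).

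**Figure D5:**
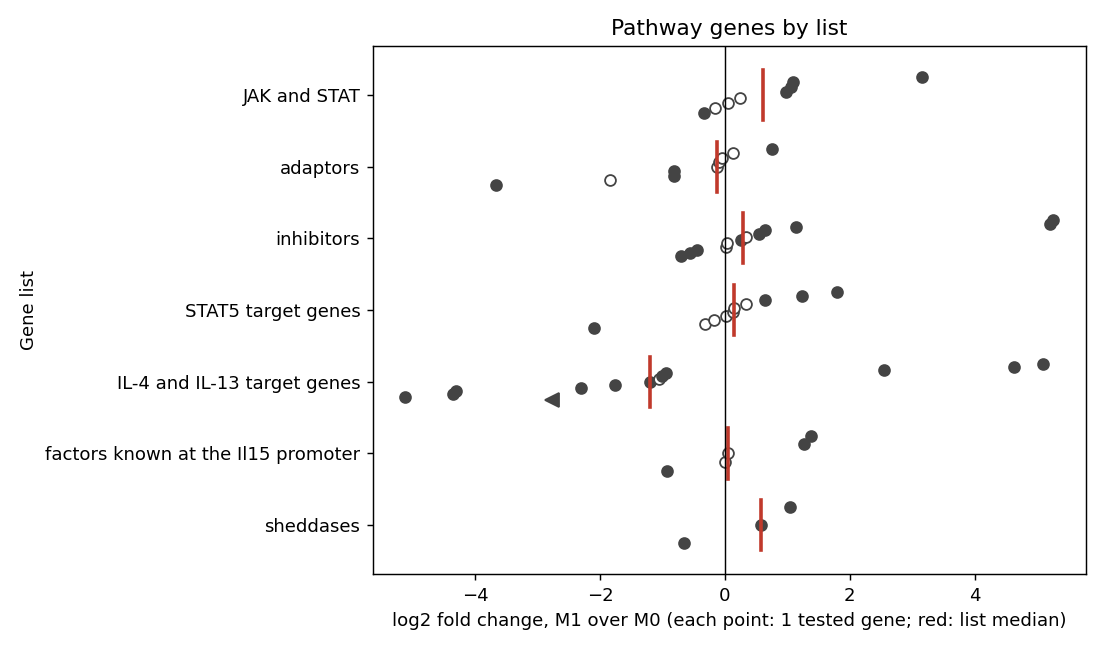
Log2 fold change, M1 over M0, of each tested gene in 7 pathway lists, with a red line at each list's median. Filled points are genes past an adjusted p of 0.05, and open points are the rest. The triangle for Mgl2 is drawn with 3 counts taken for the M1 libraries together. The IL-4 and IL-13 target genes have a median of -1.20 and the JAK and STAT genes one of 0.61.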

How the data were processed

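The authors deposited 1 table of raw counts per library, with gene symbols and whole-number read counts. Per the submitters' processing notes, the tools were Subread 2.0.1, featureCounts, DESeq2 1.30.1 and R 4.0.4, with genome build mm10; the annotation and the strand setting are not given in the sources used here. The genes and lists were chosen with earlier results of these data known, and some lists came from that earlier work.

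All 4 libraries (2 M1, 2 M0) entered 1 fit without a replicate block: edgeR 4.0.16 in R 4.3.3, quasi-likelihood test, trimmed-mean scaling, filterByExpr (minimum count 10, minimum total 15; 12966 of 18256 genes kept), Benjamini-Hochberg adjustment over all kept genes, threshold 0.05. CPM used effective library sizes. RPKM used exon-union lengths of GENCODE models matched by symbol (17855 genes, 97.8%). Rows without a gene name held 0% of reads. The fit was tested on simulated data. Within-group counts varied beyond sampling noise (chi-square over degrees of freedom 12.6 in M1 and 8.78 in M0), so no libraries were merged in the fit. For the folds with 3 counts in place of 0 and the ratio of reads of Pdcd1lg2, the reads of a group's libraries were added together. SEs and intervals of fold changes were computed from the edgeR fit and include the spread between libraries. Each SE was the absolute log2 fold change over the square root of the test's F statistic, and intervals used a t quantile. The interval of a ratio of reads (Pdcd1lg2) covers counting error only. The folds with 3 counts in place of 0 took the other group's reads as exact, so they are not lower limits. A count of 0 allows up to 3 reads, or 0.185 CPM in each M1 library and 0.144 and 0.174 CPM in the M0 libraries. Named were the 8 genes, the family's other ligands and receptor chains, and from each pathway list up to 4 called genes with the largest change plus up to 2 called in the opposite direction; further genes served as examples. Some genes of these lists are not reported here and were left out of the list counts. Alternatives covered scaling, filters, DESeq2 1.42.0, limma 3.58.1, a replicate block and leaving out each library.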

Additional observations from a re-analysis of the deposited data

How the results depend on the processing

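Il2rg, Il4ra, Il15, Il15ra and Il21r were called higher and Il7r lower in all 13 alternatives (scaling, filter, tool, block and left-out library). Their log2 fold changes ranged from 2.65 to 3.21 for Il2rg, 1.21 to 1.58 for Il4ra, 1.90 to 2.30 for Il15, 2.29 to 2.61 for Il15ra, 1.82 to 2.31 for Il21r and -4.70 to -3.87 for Il7r. The count of the 8 genes called higher was 6, or 5 where Il2ra lost its call. Scaling by library totals gave 2024 genes called higher and 4776 called lower, 29.8% of calls being higher, and 2 of the 8 genes called lower; it also called 5 adaptor genes and 2 JAK and STAT genes lower. Upper-quartile factors shifted the median of all genes by -0.104, with 41% of calls higher. Leaving out 1 library at a time gave 1691 to 2966 genes called higher and 1463 to 2855 called lower, with fewer samples in each fit and a lone library assumed to vary like the other group. Il7 ranged from -0.26 (without M1 replicate 2, reversed) to 1.48 without 1 library. The replicate numbers pair the libraries by number only, and deviations of same-numbered libraries had a correlation of -0.113. With the replicate block, 2957 genes were called higher and 2974 lower, and 6 and 1 of the 8 genes; the block ended the call of Stat5b (adjusted p = 0.0593 by edgeR). A crossed pairing, added after seeing the data, gave 3648 genes called higher and 3627 lower. Without 1 library the log2 ratios ranged from -1.63 to -1.30 for Il4ra to Il2rg, -3.53 to -2.76 for Il13ra1 to Il2rg, 0.17 to 0.60 for Il15ra to Il15 and -0.65 to -0.13 for Il15ra to Il2rg. With lengths of the longest transcript, mean Il4ra to Il2rg was 0.495 in M1 and 1.37 in M0. The causes of these changes were not tested. With 2 libraries a group, depth limits Il2ra, Il7 and Il2rb, which had at most 34 reads in any library. Depth also limits Cish and Socs2, whose intervals are given above.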
